A study of Mus musculus with 6 samples.

Results

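Genes of the motile cilium axoneme, the microtubule core of a beating cilium or sperm tail, were examined in epididymal white adipose tissue of control and cold-exposed mice. The members were the protein-coding genes of the GENCODE M21 annotation whose symbol begins with Dnah, Dnai, Dnaaf, Rsph, Tekt, Cfap, Drc or Spag, together with Foxj1, Dcdc2a, Ccdc39, Ccdc40, Ccdc113, Ccdc114, Ccdc151 and Ccdc153, that had at least 1 read. Of 88 such genes in the annotation, 86 had a read, out of 23492 genes seen in the series (16868 of them protein-coding). Cfap73, Rsph6a and Spag11a entered with 1 read each, and Spag11b and Cfap97d1 had 0 reads. The symbols take in a few genes whose proteins lie outside the axoneme, such as Spag7 and Spag9.

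The RNA came from male C57BL/6N mice aged 20 weeks, an inbred strain kept at 22 to 24 °C. Poly-A RNA (100 ng a library) was read as direct cDNA on a Nanopore device, without PCR. The 3 control mice (ctrl 5, ctrl 6 and ctrl 10) were compared with 3 mice kept singly at 4 °C for 24 h (cold 7, cold 12 and cold 16). The labels do not say whether the controls were housed singly. No genetic change is named for either group, each library is 1 mouse, and numbers are not shared between groups.

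A motile cilium is built on a ring of outer microtubule doublets around a central pair. Outer and inner dynein arms slide the doublets, the nexin-dynein regulatory complex and the radial spokes control the sliding, and cytoplasmic assembly factors put the dynein arms together before they are carried into the cilium. FOXJ1 is the transcription factor that switches on these genes, acting alongside RFX factors, which bind a DNA element called the X-box. Multiciliated cells line the airways, the brain ventricles, the oviduct and the efferent ducts that join testis and epididymis, while the sperm tail is built on the same axoneme. Adipocyte precursors, in contrast, carry a single non-motile primary cilium.

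Libraries held between 726283 and 1341592 reads, so that 1 read was worth 0.747 to 1.38 CPM (counts scaled to 1000000 reads on genes) and 3 reads, the limit that a count of 0 allows, 2.24 to 4.14 CPM. The tissue label was borne out by adipocyte markers, all 20 of which were seen in every library, with summed levels of 67318 ± 3112 CPM in ctrl and 66156 ± 1814 CPM in cold (SD, n = 3 each). Over all genes, 53 of 9772 tested were higher and 11 lower in cold. The members held 3422 reads. Only 10 of the 86 had enough reads to be tested, 38 had 10 to 99 reads, 32 had 3 to 9, and 6 had 1 or 2. Intervals and limits below cover counting error only, and in bulk tissue fewer cells of a type cannot be told apart from less RNA per cell.

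Sequences at the members' start sites are shown for the X-box, since RFX factors are known regulators of ciliary genes. RefSeq promoters (GRCm38.p6; 250 bases before to 50 after the start) were at hand for 71 of the 86 members. One arm of the X-box, searched as GTTGCCA on either strand, occurred in 14 of the 71 (19.7%) and in 1358 of 27025 promoters of all genes (5.02%). The full palindrome, GTTNCC followed after 2 bases by GGNAAC, which the single arm can overlap, occurred in 2 members (2.82%) and 0.529% of all promoters. A looser form, GTTNCC followed after 2 bases by GNNAAC and chosen after the promoters had been read, occurred in 4 members (5.63%) and 0.788% of all promoters. The forkhead core GTAAACA occurred in 4 members (5.63%) and 4.05% of all promoters. A match is a description of the letters, and binding was not measured. The capitals below mark the palindrome or its looser form, each on the strand shown.
Ccdc153 (chr9:44240513-44240550, plus strand, 152 bases before the start): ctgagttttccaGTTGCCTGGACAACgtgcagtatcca
Cfap298 (chr16:90935012-90935049, minus strand, 188 bases before): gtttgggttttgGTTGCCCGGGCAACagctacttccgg
Ccdc151 (chr9:22002643-22002680, minus strand, 34 bases before): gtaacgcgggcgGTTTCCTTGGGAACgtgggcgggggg
Ccdc113 (chr8:95534074-95534111, minus strand, 14 bases before): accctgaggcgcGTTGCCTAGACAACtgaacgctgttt

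The single arm is in capitals in the next sequences, from members that had at least 10 reads and carried it within 20 bases before the start.
Tekt1 (chr11:72361879-72361909, minus strand, 15 bases before the start): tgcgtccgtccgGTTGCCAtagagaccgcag
Cfap44 (chr16:44394767-44394797, minus strand, 20 bases before): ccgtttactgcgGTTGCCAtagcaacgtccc
Cfap97d2 (chr8:13705857-13705887, minus strand, 20 bases before): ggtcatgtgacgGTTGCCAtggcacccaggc
Dnaaf2 (chr12:69198421-69198451, plus strand, 10 bases before): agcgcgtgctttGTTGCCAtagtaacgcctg
Drc1 (chr5:30281369-30281399, minus strand, 12 bases before): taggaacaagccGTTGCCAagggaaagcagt

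The first comparison asked how much RNA of motile cilium genes the fat pad held in each mouse. Summed over the 86 members, the level was 459, 382 and 393 CPM in ctrl 5, 6 and 10, and 574, 881 and 726 CPM in cold 7, 12 and 16. The groups did not overlap, and the ratio of the means was 1.77. The sum was made up in large part of 7 genes at 10 CPM or more in the controls (Spag7, Spag9, Cfap20, Cfap36, Cfap298, Rsph3a and Rsph3b). Cfap298, at 20.0 CPM, was the lowest of these, and Dnaaf2, at 7.39 CPM, the highest of the other 79.

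The 79 scarce members summed to 129, 79.9 and 68.8 CPM in ctrl 5, 6 and 10, and to 251, 504 and 409 CPM in cold 7, 12 and 16. Their mean was 92.6 ± 32.1 CPM in ctrl and 388 ± 128 CPM in cold (SD, n = 3 each), a 4.19-fold difference. A split by the control level favours genes that are low in the controls. Leaving out Foxj1, Dcdc2a and Ccdc153 as well, which leaves 76 members that averaged under 10 CPM over the 6 libraries, the ratio was 3.16, with 68.0 to 109 CPM in ctrl and 212 to 333 CPM in cold. The controls contained reads of 29 to 39 of the 79 genes and the cold libraries of 58 to 72. Of the 79, 32 had no control read and so were members through the cold libraries alone. Over all genes, 17026 to 17515 were seen in the controls and 16905 to 18252 in cold. Cold 7 and cold 16 had fewer reads than any control library. In reads scaled by library size, 71 of the 79 were higher in cold and 8 lower, against 59.1% and 40.9% of all 13995 genes under 10 CPM in the controls. Cold 12 was the highest cold library for 39 of them, cold 16 for 22 and cold 7 for 17.

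**Figure D1:**
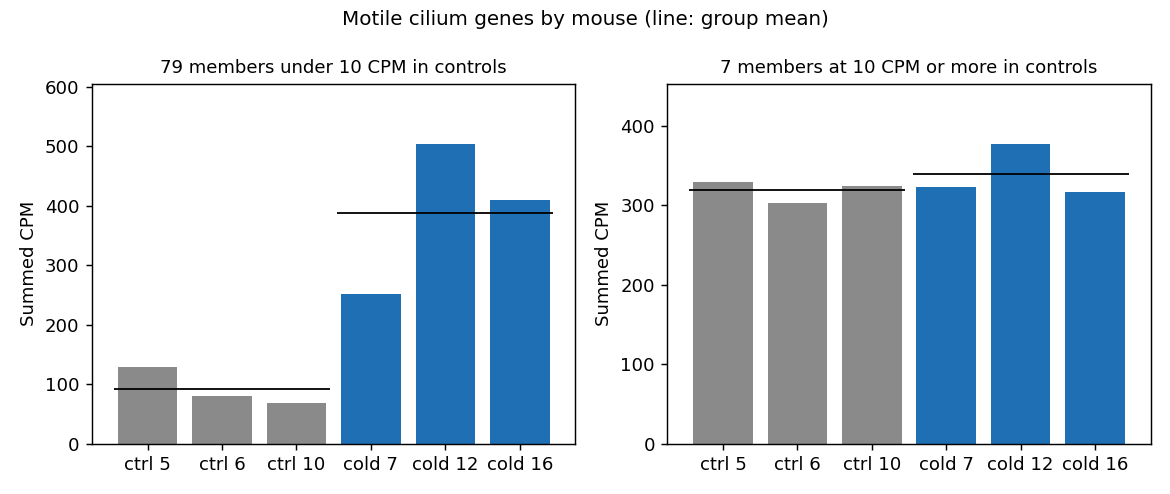
Summed CPM (vertical axis, linear from 0) in each mouse (horizontal axis) for the 79 members under 10 CPM in the controls (left) and the 7 members at or above it (right); lines are group means. The 79 scarce members lie between 68.8 and 129 CPM in the controls and between 251 and 504 CPM in the cold mice, while the 7 common members overlap between the groups.

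Counts of single members pointed the same way. Among the 48 members with at least 10 reads, all 3 cold libraries lay above all 3 controls for 21 (43.8%), against 6.96% of all 14532 genes with that many reads. The reverse order occurred for 1 member, Dnah17, against 7.03% of all genes. Among the 38 members with 10 to 99 reads the counts were 17 and 1, against 8.19% and 5.86% of genes in that range. Each cold library was also set against the control mean on the scale of log2 (CPM + 1). Cold 7 was at least 2-fold higher for 20 of the 48 members (all genes: 4.18%), cold 12 for 29 (4.84%) and cold 16 for 24 (6.39%). On this scale 1 read in cold 7 or cold 16 over 0 control reads counts as 2-fold, as for Dnah5 and Tekt4. The shares are of all genes with at least 10 reads and were not matched for depth. At least 2-fold lower values were seen for 1, 2 and 2 members (7.18%, 4.05% and 6.10% of all genes).

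No control read was seen for 32 of the 86 members (12.8% of all genes), and 10 of these had reads in all 3 cold libraries, 19 in 2 and 3 in 1. Among members with only 3 to 9 reads, 21 of 32 were seen in cold alone (65.6%), against 11.6% of 3814 genes in that range, and 0 were seen in ctrl alone (6.69% of genes). Dnah8, with 2 reads, was the one member without a cold read (9.48% of all genes). Of the members with at least 10 reads, 7 were seen in cold alone, against 0.420% of such genes, a share not matched for depth.

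**Figure D2:**
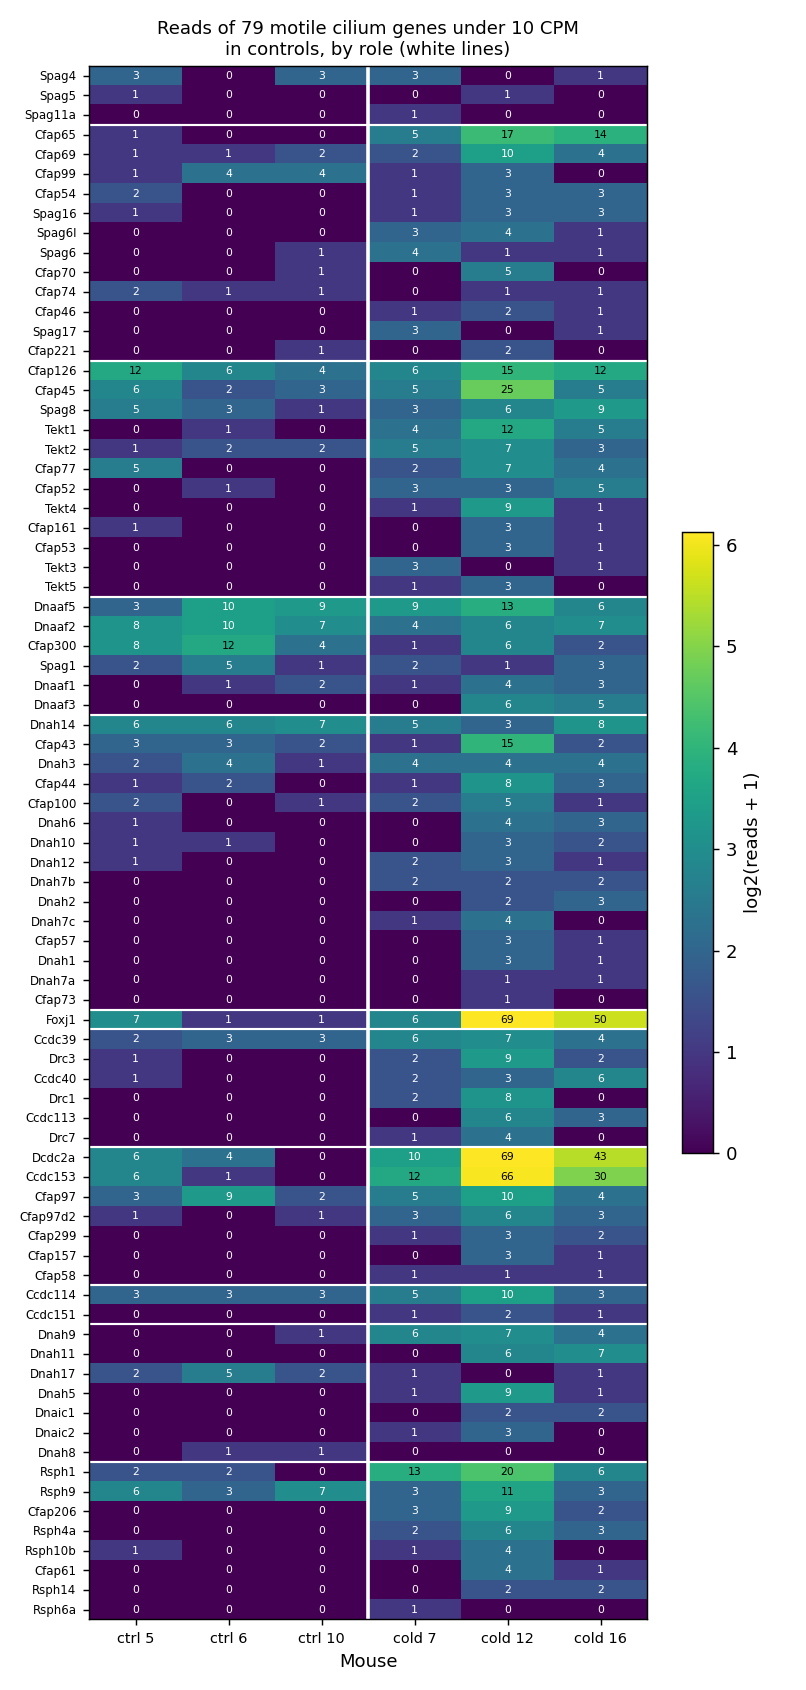
Reads of the 79 members under 10 CPM in the controls (rows, grouped by role between white lines) in each mouse (columns); colour shows log2 (reads + 1) and the number in each cell is the read count. The left columns are mostly dark, with reads for 29 to 39 genes, and the right columns have reads for 58 to 72 genes, Foxj1, Dcdc2a and Ccdc153 the brightest in cold 12 and cold 16. Of the 79 genes, 32 had no control read and so were members through the cold libraries alone.

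In the test across all genes, edgeR's quasi-likelihood test, 2 of the 10 members tested rose in the cold, Ccdc153 and Dcdc2a, and 0 fell. The background was 0.542% of 9772 genes tested for a rise and 0.113% for a fall. At an unadjusted edgeR p under 0.05, 3 of the 10 members were higher and 0 lower, against 4.72% and 3.71% of all genes tested. DESeq2 called 0 in either direction (0.399% of all genes higher and 0.0716% lower), and limma-voom called 1 higher and 0 lower (0.399% and 0.0921%). The median log2 difference of the 10 was 0.24, and that of all genes tested was 0.01. Without a filter on low counts, edgeR called 14 of the 86 members higher (1.30% of 23492 genes) and 0 lower (0.277%). These were Foxj1, Dcdc2a, Ccdc153, Cfap65, Rsph1, Tekt1, Cfap206, Dnah9, Dnah11, Cfap45, Rsph4a, Dnaaf3, Dnah5 and Tekt4, and that fit gave Ccdc153 a smaller standard error (0.41) than the filtered one (0.57). Of these 14, Cfap206, Dnah11, Rsph4a, Dnaaf3, Dnah5 and Tekt4 had 0 control reads and so were members through the cold libraries alone. Dnah5 and Tekt4 each had 9 of 11 reads in cold 12, and Cfap45 overlapped between the groups. The 76 untested members include most dynein, spoke and central pair genes, so the filtered counts speak for the more abundant members only.

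Foxj1 (ENSMUSG00000034227.7, chromosome 11, 116330704 to 116335399, minus strand) encodes the master regulator. Its reads numbered 7, 1 and 1 in ctrl 5, 6 and 10, and 6, 69 and 50 in cold 7, 12 and 16. In CPM these are 7.47, 0.747 and 0.883 against 8.27, 57.9 and 63.9. Cold 12 and cold 16 were far above every control, whereas cold 7 stood just above ctrl 5. The low-count filter of the test removed Foxj1, so it has no adjusted p in that fit. The ratio of summed reads, scaled by library size, was 17.5 (95% interval 8.95 to 39.3, counting error only). All its reads were on the transcript Foxj1-201.

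Ccdc153 (ENSMUSG00000070306.3, chromosome 9, 44240676 to 44247306, plus strand) encodes a coiled-coil protein of motile cilia. It had 6.40, 0.747 and 0 CPM in ctrl 5, 6 and 10, from 6, 1 and 0 reads, and 16.5, 55.4 and 38.3 CPM in cold 7, 12 and 16, from 12, 66 and 30 reads. The groups did not overlap. The log2 difference was 4.17 ± 0.57 (SE; edgeR adjusted p = 0.000292). With DESeq2 the adjusted p was 0.154. Its promoter, which holds the looser X-box printed above, is shown whole because the gene passed the test, with the first 50 transcribed bases in capitals.
Ccdc153 (chr9:44240427-44240726, plus strand): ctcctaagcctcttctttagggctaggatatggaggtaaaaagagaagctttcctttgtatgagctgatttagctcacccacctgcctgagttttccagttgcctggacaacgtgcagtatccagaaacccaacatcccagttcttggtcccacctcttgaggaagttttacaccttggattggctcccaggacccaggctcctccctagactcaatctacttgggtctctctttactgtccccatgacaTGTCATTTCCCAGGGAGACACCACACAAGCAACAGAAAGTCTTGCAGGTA

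Dcdc2a (ENSMUSG00000035910.15, chromosome 13, 25056004 to 25210706, plus strand) encodes a doublecortin-domain protein that binds microtubules. It had 6.40, 2.99 and 0 CPM in ctrl 5, 6 and 10, and 13.8, 57.9 and 54.9 CPM in cold 7, 12 and 16. Every cold library was above every control, with cold 7 again the lowest of the cold mice. The log2 difference was 3.87 ± 0.55 (SE; edgeR adjusted p = 0.000376). The call was lost with DESeq2 (adjusted p = 0.0994) and limma-voom (adjusted p = 0.0778). Of its 132 reads, 131 were on Dcdc2a-202, and that transcript was the one of 14 member transcripts tested that passed (log2 difference 3.85 ± 0.54, edgeR adjusted p = 0.000439; 0.325% of all 12325 transcripts tested were higher and 0.0568% lower). In its promoter, shown for the same reason, the first 50 transcribed bases are in capitals.
Dcdc2a (chr13:25055754-25056053, plus strand): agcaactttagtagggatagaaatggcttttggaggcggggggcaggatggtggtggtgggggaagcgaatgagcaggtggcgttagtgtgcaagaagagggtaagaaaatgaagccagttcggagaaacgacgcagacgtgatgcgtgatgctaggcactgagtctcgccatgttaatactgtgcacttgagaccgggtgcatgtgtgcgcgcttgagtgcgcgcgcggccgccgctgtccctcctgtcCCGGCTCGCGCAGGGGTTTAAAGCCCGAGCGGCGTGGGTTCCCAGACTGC

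These 3 genes together held 15.7%, 5.61% and 1.28% of the reads of the scarce members in ctrl 5, 6 and 10. Their share was 15.4%, 33.9% and 38.4% in cold 7, 12 and 16. Cold 7 therefore differed from the other cold mice in the make-up of its motile cilium reads, with a share close to that of ctrl 5.

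**Figure D3:**
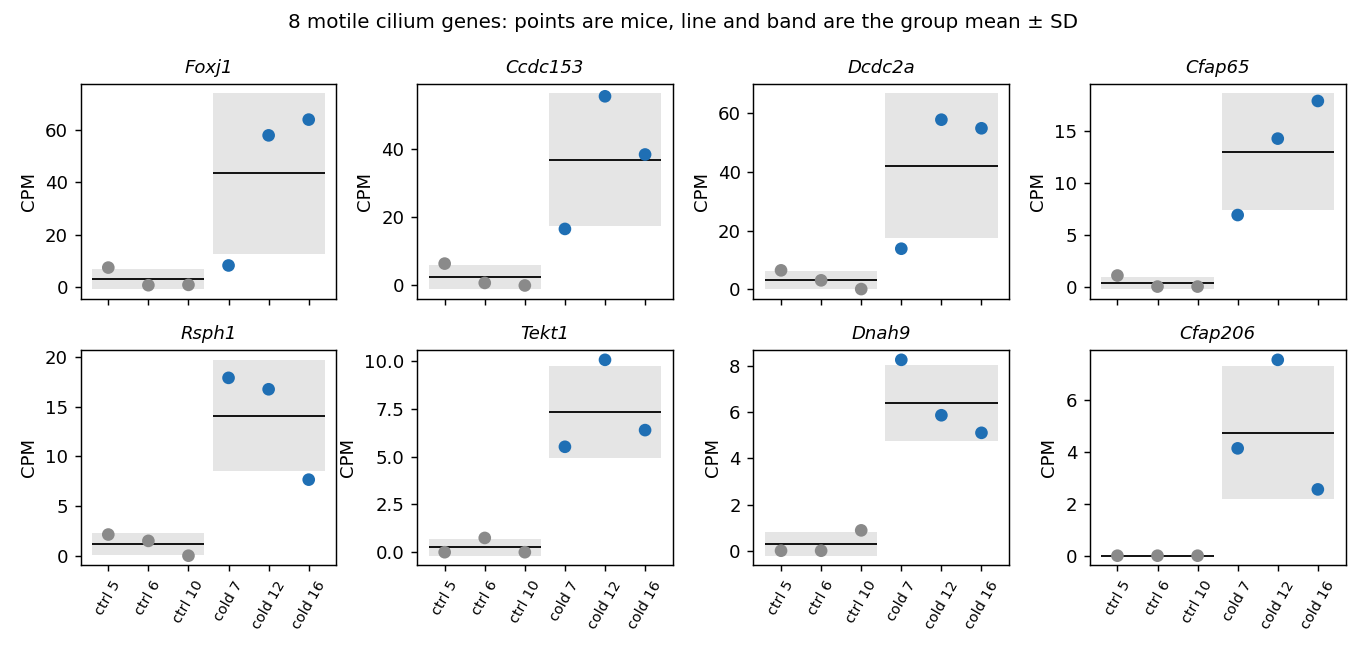
CPM (vertical axes, linear, each panel with its own scale) of 8 members in each mouse (horizontal axis); points are mice, and the line and band are the group mean ± SD. Foxj1, Ccdc153 and Dcdc2a are highest in cold 12 or cold 16 and lowest among cold mice in cold 7, whereas Rsph1 and Dnah9 are highest in cold 7.

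Outer dynein arms carry the heavy chains that drive the power stroke. The 7 outer arm genes summed to 2.13, 4.48 and 3.53 CPM in ctrl 5, 6 and 10 and to 12.4, 22.6 and 19.2 CPM in cold 7, 12 and 16. Of the 7, 4 were seen in cold alone and so were members through the cold libraries, and 1 was seen in ctrl alone. Dnah9, a heavy chain of the outer arm, had 0, 0 and 0.883 CPM in ctrl 5, 6 and 10 and 8.27, 5.87 and 5.11 CPM in cold 7, 12 and 16. Every cold library was thus above every control, on 17 cold reads and 1 control read (ratio 21.5, 95% interval 3.36 to 897). Dnah11, another outer arm heavy chain, had 0 control reads, and 0, 6 and 7 reads in cold 7, 12 and 16, at least 5.47-fold higher when the control group is given 3 reads in all. Dnah5, the partner of Dnah9 in outer arms, was at 0 in the controls and had 1, 9 and 1 reads in the cold libraries, at least 4.63-fold higher by the same rule and mostly in cold 12.

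Dnah17, the outer arm heavy chain of sperm tails, went the other way, with 2, 5 and 2 control reads against 1, 0 and 1 cold reads (ratio 0.281, interval 0.0295 to 1.36). The interval includes no difference, and 7 of its 11 reads were on a processed transcript of 1361 bases. Ccdc114 and Ccdc151 encode docking proteins that anchor the outer arm. Ccdc114 had 2.24 to 3.20 CPM in the controls and 6.89, 8.39 and 3.83 CPM in cold 7, 12 and 16, without overlap. Ccdc151 had 0 control reads and 1 or 2 reads in each cold library.

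Inner arms set the shape of the beat. Their 15 heavy chain and tether genes summed to 18.1, 11.9 and 9.71 CPM in ctrl 5, 6 and 10 and to 24.8, 51.2 and 40.9 CPM in cold 7, 12 and 16, and 7 of the 15 were seen in cold alone. Dnah3, an inner arm heavy chain, had 2.13, 2.99 and 0.883 CPM in the controls and 5.52, 3.35 and 5.11 CPM in the cold libraries, without overlap, but with an interval of the ratio (2.16) of 0.786 to 6.49. Cfap43, a tether of an inner arm motor, was high in cold 12 alone, with 15 reads there and 1 to 3 in every other library. Dnah14 had 4.48 to 6.40 CPM in the controls and 2.52 to 10.2 CPM in cold, and 34 of its 35 reads were on a retained-intron transcript of 1999 bases. The near-identical copies Dnah7a, Dnah7b and Dnah7c, all at 0 in the controls, had 2, 6 and 5 cold reads, whose division among them is uncertain.

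Dynein heavy chains have very long messages, so the annotated length of the transcripts that took their reads was examined. The 15 Dnah genes had 153 reads. On transcripts of at least 10 kb, ctrl 5, 6 and 10 had 4.27, 3.73 and 3.53 CPM and cold 7, 12 and 16 had 17.9, 38.6 and 26.8 CPM. That is 13 control and 80 cold reads, a ratio of 7.77 (95% interval 4.30 to 15.2). Shorter transcripts of the same genes had 29 control and 31 cold reads, a ratio of 1.35 (0.787 to 2.32). Of the shorter reads, Dnah14-208, the retained-intron transcript, and Dnah17-201, a processed transcript, held 25 control and 16 cold reads (ratio 0.808, 0.403 to 1.57). The other 9 shorter transcripts had 4 control and 15 cold reads, a ratio of 4.74 (1.51 to 19.6), after these transcripts had been set apart with their values seen. The scarce members other than Dnah, all on shorter transcripts, had 264 control and 992 cold reads, a ratio of 4.75 (4.14 to 5.46). No difference by transcript length was tested. The files do not give read lengths, so a read on a long transcript need not span it.

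**Figure D4:**
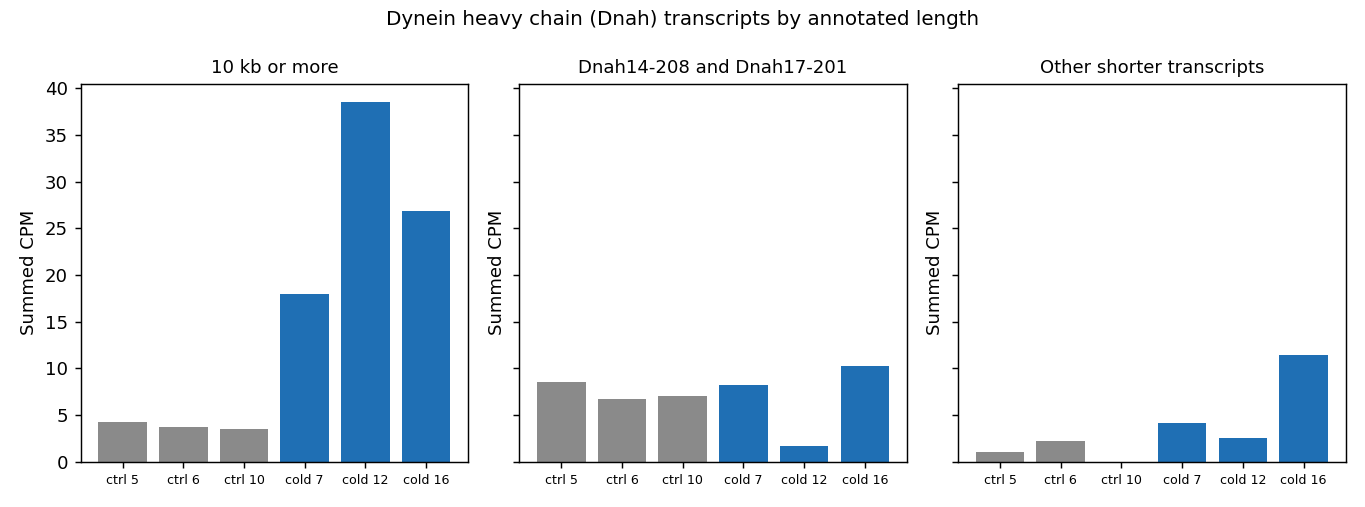
Summed CPM (vertical axis, linear from 0) of the 15 Dnah genes in each mouse (horizontal axis), split into transcripts of at least 10 kb, the pair Dnah14-208 and Dnah17-201, and other shorter transcripts. The cold mice lie above the controls on the long transcripts (17.9 to 38.6 against 3.53 to 4.27 CPM) and on the other shorter ones (2.52 to 11.5 against 0 to 2.24 CPM), while the pair, which holds 25 of the 29 control reads on shorter transcripts, overlaps between the groups.

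Assembly factors build dynein arms in the cytoplasm. Without Cfap298, the other 6 summed to 20.3 to 28.4 CPM in the controls and 23.4 to 33.2 CPM in cold, with overlap. Cfap298 had 20.3, 23.9 and 15.9 CPM in ctrl 5, 6 and 10 and 23.4, 45.3 and 28.1 CPM in cold 7, 12 and 16, a log2 difference of 0.76 ± 0.27 (SE; edgeR adjusted p = 0.381). Dnaaf5 had 3.20 to 7.94 CPM in ctrl and 7.66 to 12.4 CPM in cold, and Dnaaf2 6.18 to 8.53 and 5.03 to 8.94 CPM. Cfap300 lay lower in cold by its summed reads, with 24 control and 9 cold reads, but with a ratio of 0.474 whose interval, 0.194 to 1.06, includes 1. Dnaaf3 was at 0 in the controls and in cold 7, and had 6 and 5 reads in cold 12 and cold 16.

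The nexin-dynein regulatory complex links neighbouring doublets, and Ccdc39 and Ccdc40 form the ruler that spaces dyneins and spokes along them. These 6 genes summed to 4.27, 2.24 and 2.65 CPM in ctrl 5, 6 and 10, and to 17.9, 31.0 and 19.2 CPM in cold 7, 12 and 16. The ratio of means was 7.44, but 3 of the 6 had no control read and were members through the cold libraries alone. Ccdc39 had 2.13, 2.24 and 2.65 CPM in the controls and 8.27, 5.87 and 5.11 CPM in the cold libraries, without overlap (ratio 2.68, interval 1.10 to 7.18). Its partner Ccdc40 had 1 control read and 2, 3 and 6 reads in cold 7, 12 and 16. Drc3, a regulatory complex subunit, had 1 control read and 2, 9 and 2 cold reads. Ccdc113 had 0 control reads and 0, 6 and 3 cold reads, and Drc1 had 0 control reads and 2, 8 and 0 cold reads, so neither was seen in all cold mice.

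Radial spokes carry signals from the central pair to the dyneins. The 8 scarce spoke genes summed to 9.60, 3.73 and 6.18 CPM in ctrl 5, 6 and 10 and to 31.7, 47.0 and 21.7 CPM in cold 7, 12 and 16. Of the 8, 5 were seen in cold alone. Rsph1, a spoke head protein, had 2.13, 1.49 and 0 CPM in the controls and 17.9, 16.8 and 7.66 CPM in cold, without overlap (ratio 12.3, interval 4.44 to 47.4). Cfap206, at the spoke base, had 0 control reads and 3, 9 and 2 cold reads, at least 5.89-fold higher by that rule. Rsph4a, another head protein, had 0 control reads and 2, 6 and 3 cold reads. Rsph9, also a head protein, overlapped between the groups, with 2.24 to 6.40 CPM in ctrl and 3.83 to 9.23 CPM in cold.

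The spoke stalk genes Rsph3a and Rsph3b, near-identical copies, were common in all libraries. Rsph3a had 27.7, 33.6 and 37.1 CPM in ctrl 5, 6 and 10 and 33.1, 35.2 and 44.7 CPM in cold 7, 12 and 16, a log2 difference of 0.21 ± 0.22 (SE; edgeR adjusted p = 0.898). Rsph3b had 33.1, 29.9 and 35.3 CPM against 37.2, 40.3 and 37.0 CPM, a log2 difference of 0.26 ± 0.21 (SE; edgeR adjusted p = 0.838). The cold libraries all lay above the controls for Rsph3b, but neither gene passed the test.

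The central pair sets the beat's rhythm through the spokes. Its 12 genes summed to 8.53, 4.48 and 8.83 CPM in ctrl 5, 6 and 10 and to 29.0, 42.8 and 37.0 CPM in cold 7, 12 and 16. Among the 12, 3 were seen in cold alone. Cfap65 had the most reads of the 12, with 1.07, 0 and 0 CPM in the controls and 6.89, 14.3 and 17.9 CPM in cold (ratio 45.5, interval 7.65 to 1845, on 1 control read). Cfap69, a central pair protein, had 0.747 to 1.77 CPM in the controls and 2.76, 8.39 and 5.11 CPM in cold, without overlap. Cfap99 overlapped and was not higher, with 1.07 to 3.53 CPM in ctrl and 0 to 2.52 CPM in cold. Spag6 and Spag6l, close copies of each other, had 0 to 0.883 CPM in the controls and 0.839 to 5.52 CPM in cold, and reads may be divided between them.

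Tektins and other inner proteins line the doublets and stiffen them. Tekt1 had 0, 0.747 and 0 CPM in ctrl 5, 6 and 10 and 5.52, 10.1 and 6.39 CPM in cold 7, 12 and 16, without overlap (ratio 26.5, interval 4.26 to 1097, on 1 control read). Cfap45, an inner protein, had 6.40, 1.49 and 2.65 CPM in the controls and 6.89, 21.0 and 6.39 CPM in cold. Ctrl 5 stood just above cold 16 in it, so the groups touched, and cold 12 was alone far above. Tekt4 had 0 control reads and 1, 9 and 1 cold reads. Spag8, also an inner protein, overlapped between the groups, at 0.883 to 5.33 CPM in ctrl and 4.14 to 11.5 CPM in cold.

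The more abundant inner proteins did not pass the test. Cfap126 had 12.8, 4.48 and 3.53 CPM in ctrl 5, 6 and 10 and 8.27, 12.6 and 15.3 CPM in cold 7, 12 and 16 (log2 difference 0.92 ± 0.45 SE, edgeR adjusted p = 0.616). Cfap20, which is found in non-motile cilia as well, had 50.1, 39.6 and 47.7 CPM against 62.0, 59.5 and 33.2 CPM (0.22 ± 0.22 SE, edgeR adjusted p = 0.886). Cold 16 was the lowest of all libraries for Cfap20. Cfap36, which is not in the inner protein group, was likewise lowest in cold 16. It had 44.8, 47.0 and 50.3 CPM against 57.9, 54.5 and 30.7 CPM (0.05 ± 0.22 SE, edgeR adjusted p = 0.981).

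Among the remaining genes, Cfap97d2 had 1.07, 0 and 0.883 CPM in the controls and 4.14, 5.03 and 3.83 CPM in cold, without overlap (ratio 7.58, interval 1.69 to 69.7). Cfap299 had 0 control reads and 1, 3 and 2 cold reads. Cfap97 overlapped, at 1.77 to 6.72 CPM in ctrl and 5.11 to 8.39 CPM in cold. The Spag genes outside the axoneme did not share the difference. Spag7 had 85.3, 62.7 and 76.8 CPM against 60.7, 80.5 and 88.1 CPM (log2 difference 0.07 ± 0.18 SE, edgeR adjusted p = 0.961). Spag9, a scaffold of JNK signalling, had 68.3, 65.7 and 60.9 CPM against 48.3, 62.1 and 54.9 CPM (log2 difference -0.19 ± 0.17 SE, edgeR adjusted p = 0.861). Spag4 had 0 to 3.20 CPM in ctrl and 0 to 4.14 CPM in cold, with overlap, and Spag5 had 1 read in each group.

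Other genes of the cilium were read from lists compiled with earlier results of these data known. A list of 57 symbols for other motile cilium genes, matched as written, found 54 genes seen. In edgeR 0 of the 7 tested passed in either direction, 0 had an unadjusted p under 0.05, and DESeq2 and limma-voom called 0. By reads, 21 of its 40 genes with at least 10 reads had every cold library above every control, as against 6.96% of all such genes. Tmem212, chosen after its values were seen, had 5.33, 2.24 and 0 CPM in ctrl 5, 6 and 10 and 5.52, 35.2 and 29.4 CPM in cold 7, 12 and 16, with cold 7 the lowest cold mouse as for Foxj1. Dynlrb2, a dynein light chain gene chosen in the same way, had 2.13, 0 and 0 CPM against 4.14, 31.0 and 21.7 CPM. The list's most read genes, Ulk4, Tctn1 and Tppp3, overlapped between the groups.

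Genes that motile and primary cilia share did not pass the test. The 44 genes of intraflagellar transport, the BBSome and the primary cilium summed to 713, 629 and 655 CPM in ctrl 5, 6 and 10 and to 674, 672 and 666 CPM in cold 7, 12 and 16. Of 23 tested, edgeR called 0 in either direction, and DESeq2 and limma-voom called 0. At an unadjusted edgeR p under 0.05, 2 were higher and 0 lower (all genes: 4.72% and 3.71%). The 3 most read, Ift20, Arl3 and Ift46, had means of 77.1, 61.4 and 35.7 CPM in ctrl and 77.2, 59.1 and 40.7 CPM in cold. Of 18 symbols listed for multiciliated cell differentiation, matched as written, 15 were found among genes seen and 5 were tested. Among these edgeR called 0 in either direction (0 at an unadjusted p under 0.05), as did DESeq2 and limma-voom. The most read of them, E2f4, Tfdp1 and E2f5, also work outside such cells and had overlapping groups. Of the 10 differentiation genes with at least 10 reads, 2 had every cold library above every control (6.96% of all such genes). The reverse order occurred for 0 (7.03%).

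Markers of other cells were read from lists also compiled with earlier results of these data known. Their levels are given by mouse as a description. In a list of 35 epididymal and duct epithelium genes, 27 were seen, and the list summed to 51.2, 27.6 and 32.7 CPM in ctrl 5, 6 and 10 and to 659, 347 and 330 CPM in cold 7, 12 and 16. All 6 genes tested rose with edgeR, Lrp2, Ptgds, Krt8, Krt18, Epcam and Cldn7 (5 were called with DESeq2 and 6 with limma-voom). Their log2 differences ran from 2.70 to 4.65. Of all genes tested, 0.542% were higher with edgeR and 0.399% with DESeq2 and with limma-voom. Of the list's 14 genes with at least 10 reads, 10 had every cold library above every control (6.96% of all such genes). The reverse order was seen for 1 (7.03%). The general epithelial genes Epcam, Cldn7, Krt8, Krt18 and Cdh1, picked from this list, together had 22.4, 5.23 and 12.4 CPM in the controls. In cold 7, 12 and 16 they had 73.1, 169 and 126 CPM. Cdh1 was named after its values were seen. The epididymal secretory genes Crisp1, Spink8 and Adam7 had 444 CPM in cold 7, 0 in cold 12, 3.83 in cold 16 and 0.747 to 1.07 in the controls. The part of these cells in the result was not tested.

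Sperm and spermatid RNA was measured with 24 genes of a 27-gene list, leaving out Odf2, which other cells use, and Meig1, which is also in the motile cilium list (a further gene had no read). They summed to 16.0, 38.8 and 19.4 CPM in ctrl 5, 6 and 10 and to 218, 203 and 39.6 CPM in cold 7, 12 and 16. The protamine genes Prm1 and Prm2 had 26.2 and 37.2 CPM in cold 7, 42.8 and 37.7 CPM in cold 12, but 1.28 and 6.39 CPM in cold 16, where 13 of the list's 26 genes seen were at 0. In cold 7, 12 and 16 the scarce members summed to 251, 504 and 409 CPM. The part of sperm and spermatid RNA in the result was not tested. One sperm list gene, Odf2, was tested and did not pass with edgeR, DESeq2 or limma-voom (0 at an unadjusted edgeR p under 0.05).

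The mesothelial list, which marks the surface of visceral fat, summed to 437, 175 and 427 CPM in ctrl 5, 6 and 10 and 383, 226 and 236 CPM in cold 7, 12 and 16. The most read, Igfbp6, Upk3b and Rspo1, overlapped between the groups. Of 7 mesothelial genes tested edgeR called 0, as did DESeq2 and limma-voom. At an unadjusted edgeR p under 0.05, 2 were lower and 0 higher (all genes: 3.71% and 4.72%). Of the 20 adipocyte genes edgeR called 1 higher, Pnpla2, and 0 lower. At an unadjusted edgeR p under 0.05, 4 were higher and 3 lower (all genes: 4.72% and 3.71%). DESeq2 and limma-voom each called 1 higher and 1 lower. The 3 most read adipocyte genes, Fabp4, Cfd and Lpl, did not pass (edgeR adjusted p = 0.387, 0.0857 and 0.961).

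**Figure D5:**
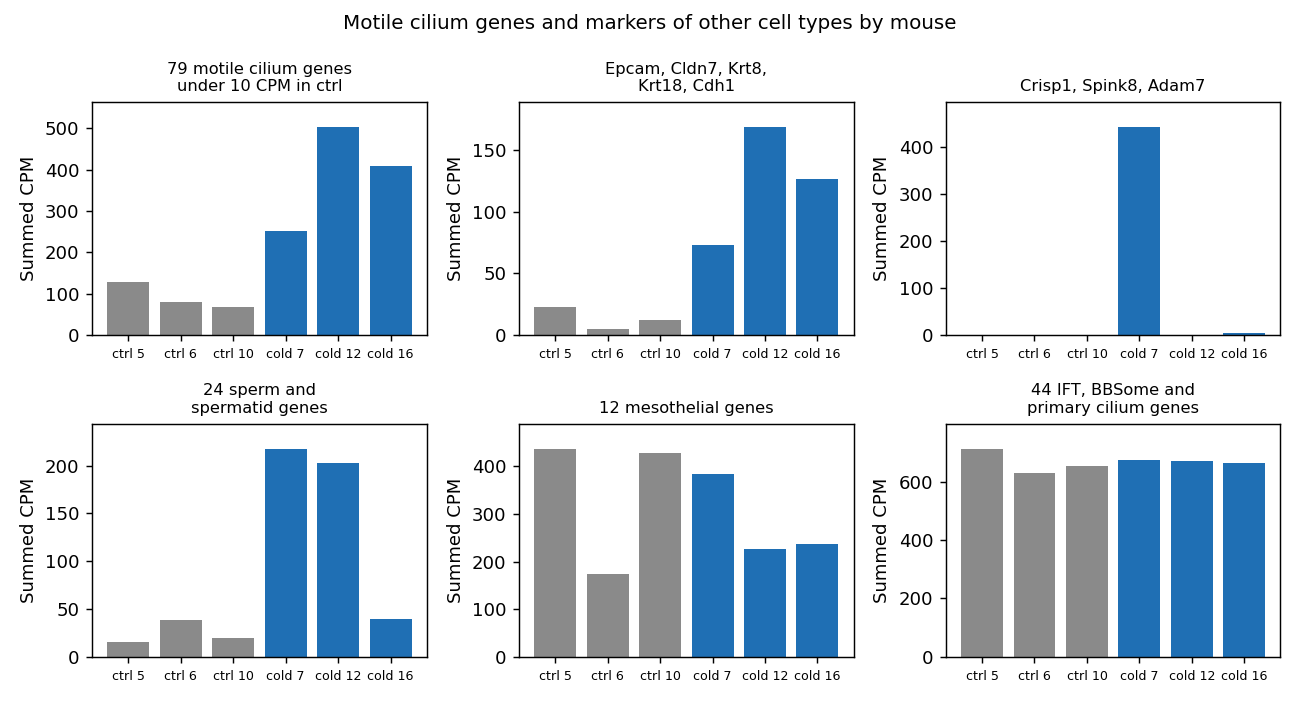
Summed CPM of the scarce motile cilium members and of marker genes of other cells in each mouse, with CPM on the vertical axes (linear from 0, each panel with its own scale) and mice on the horizontal axes. In cold 7, 12 and 16 the scarce members are at 251, 504 and 409 CPM. The epithelial genes Epcam, Cldn7, Krt8, Krt18 and Cdh1 are at 73.1, 169 and 126 CPM in these mice. Sperm and spermatid genes are at 218, 203 and 39.6 CPM, and the epididymal secretory genes at 444, 0 and 3.83 CPM.

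Some members share exons with another annotated gene, and the use of strand in counting is not given in the sources used here. Such overlap was found for 20 of the 86. Those named above are Ccdc39 (with Ttc14), Cfap298 (Gm49727), Cfap43 (Itprip), Cfap97 (Snx25), Dnaaf2 (9330151L19Rik), Dnaaf3 (Tnni3), Dnah11 (Cdca7l), Dnah14 (Lbr), Dnah17 (Pgs1), Dnah3 (Lyrm1) and Rsph3a (E430024P14Rik). Foxj1, Ccdc153, Dcdc2a, Rsph1, Cfap65, Tekt1 and Dnah9 shared none. Of the reads on members, 88.5% were on transcripts annotated as protein-coding and 6.84% on retained-intron transcripts.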

How the data were processed

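For each mouse the authors deposited 2 files (X1 and X2) of unnormalized counts of reads by transcript. What separates them is not stated. Their counts differed by about the sampling noise (chi-square per degree of freedom 1.02 to 1.06), so they were summed and counted as 1 sample. Reads were aligned with minimap2 to GRCm38, per the submitters' processing notes, and the counting tool is not given in the sources used here. Of 61729 transcript identifiers, 61538 matched GENCODE M21 when the version was ignored, and the 191 others held 0.139% to 0.165% of a library's reads. Transcripts were summed to genes, and CPM is relative to reads on genes.

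The test over all genes was the quasi-likelihood F test of edgeR 4.0.16 in R 4.3.3, with TMM, filterByExpr (minimum count 10) and Benjamini-Hochberg adjustment at 0.05. Alternatives used DESeq2 1.42.0, limma 3.58.1 (voom), DESeq2 size factors in edgeR, 2 other filters, X1 or X2 alone, and each mouse left out. Only the edgeR gene test was tried on simulated counts, for genes past the filter. Ratios compare summed reads scaled by library size, with exact binomial 95% intervals, and the floor for a control count of 0 is 3 reads over the group.

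The members and lists were chosen with earlier results of these data known. Named are all members tested, Foxj1, the 3 others with most reads in each role group, and of each list the genes called and the 3 most read. The members at or under 1 read and those whose promoter windows are shown are named as well. Adam7, Ccdc113, Cdh1, Dnaaf3, Dnah5, Dnah7a, Dnah7b, Dnah7c, Dnah8, Drc1, Rsph4a, Spag6, Spag6l, Spink8, Tekt4, Tmem212 and Dynlrb2 were named after their values were seen.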

Additional observations from a re-analysis of the deposited data

How the results depend on the processing

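Depth set the main limit, since 76 of the 86 members had too few reads for the test and a count of 0 allows up to 4.14 CPM. The number of members called higher was 2 with edgeR, 0 with DESeq2, 1 with limma-voom, and 2 to 5 with 1 mouse left out. Without a filter it was 14 (Foxj1, Rsph1, Cfap65, Tekt1 and Dnah9 among them, against 1.30% of all genes), some of which had no control read. It was 0 from X1 files or X2 files alone, where neither Ccdc153 nor Dcdc2a passed the filter. The number called lower was 0 in each of these. Ccdc153 and Dcdc2a were called whichever mouse was left out, with log2 differences of 3.61 to 6.22 and 3.30 to 4.67. The cause of the losses with DESeq2 and limma-voom was not tested. Over all genes 64 calls became 371 without a filter, 38 from X2 files, and 35 (without cold 12) to 199 (without cold 7) with a mouse left out, 106 of them without ctrl 5. Transcript calls ran from 38 to 47. The ratio of summed CPM, 1.77, ran from 1.58 to 1.95 with a mouse left out, and was 2.20 without the Spag genes outside the axoneme and 4.19 without the common members. Members without overlap numbered 21, 9 from X2 files, and 14 to 25 with a mouse left out. With cold 16 as the only cold library, an alternative chosen after seeing its values, which assumes that it varies as the controls do, there were 141 calls among 10836 genes, 4 among 14 members tested, and 17 members without overlap. Signs turned only for tested members far from the threshold. From X2 files the log2 difference was -0.20 for Rsph3b, 0.094 for Spag9 and -0.055 for Spag7. With a mouse left out Spag7 ran from -0.052 (without ctrl 6; -0.014 without cold 16) to 0.18. Cfap36 ran from -0.095 (without cold 7; -0.085 without cold 12 and -0.0013 without ctrl 5) to 0.27, and stood at -0.63 with cold 16 alone, where Cfap20 stood at -0.45. No paired analysis was possible because the groups share no mouse numbers.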
